A study of Mus musculus with 6 samples.

Results

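NF-kappaB and TNF receptor signalling is described here through 44 genes, which encode NF-kappaB subunits, their inhibitors, the kinases and adaptors that carry signals from TNF, Toll-like and interleukin 1 receptors, and the feedback genes that end the response. The rule that picks them uses symbol and role and no threshold on a measured value, although the list was drawn up with earlier results of these data known. A gene counted as measured when a probe set of the array carried its symbol and no other symbol. On that rule 38 of the 44 genes were found, among 19938 genes in all, through 39 probe sets. Nfkb1, Chuk, Traf3, Ripk1, Ripk2 and Irak4 were not analysed here.

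RNA came from 3 populations of conventional dendritic cells (cDC), sorted from spleens of wild-type mice and each hybridised to 2 Affymetrix arrays. They were CD24+CD172a+ cDC2, CD24-CD172a+ cDC2, and CD24+ cDC1, which the series title gives as lacking CD172a. The labels name no treatment, and strain, sex and age are not given in the sources used here. Type 1 cells (cDC1) present antigen to CD8 T cells, type 2 cells (cDC2) mainly to CD4 T cells, and CD172a is the surface protein that marks cDC2.

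NF-kappaB proteins are dimeric transcription factors that wait in the cytoplasm, bound by inhibitors of the IkB family. A signal from a TNF receptor, a Toll-like receptor or an interleukin 1 receptor passes through adaptors such as the TRAF proteins to the IkB kinase complex, which marks the inhibitor for destruction and frees the dimer to enter the nucleus. Many of the genes it then switches on, among them Nfkbia and Tnfaip3, encode proteins that shut the pathway down again. In dendritic cells the pathway is known for its part in maturation, cytokine release and survival.

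Because several members are known targets of NF-kappaB, their promoters were searched on either strand for a 10-base pattern that covers many kappaB sites: GGG, any 2 bases, TT, any base, CC. RefSeq promoter sequences of build GRCm38.p6, from 250 bases before to 50 bases after each listed start, were matched to 32 of the 38 measured members. A match in at least 1 listed promoter was found for 12 of the 32 members (37.5%), against 1480 of 27025 genes with a promoter entry (5.48%). A broader pattern, GGG and CC with any 5 bases between them, contains every match of the narrower one and was found for 26 of 32 members (81.2%) and for 53.5% of all genes. The matches of 8 members that differed from cDC1 in at least 1 cDC2 population are shown, each as 30 bases read 5′ to 3′ on the gene's strand with the match in capitals.
Nfkbia (chr12:55492657-55492686, minus strand): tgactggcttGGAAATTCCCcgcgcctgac
Nfkbid (chr7:30422170-30422199, plus strand): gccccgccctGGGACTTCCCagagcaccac
Bcl3 (chr7:19822734-19822763, minus strand): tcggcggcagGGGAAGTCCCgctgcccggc
Traf2 (chr2:25546891-25546920, minus strand): cgcggcagcggGGGTGTTTCCcggcgagcg
Tnfaip3 (chr10:19015403-19015432, minus strand): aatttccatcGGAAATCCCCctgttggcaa
Tnip1 (chr11:54962978-54963007, minus strand): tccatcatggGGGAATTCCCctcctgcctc
Tnip3 (chr6:65590334-65590363, plus strand): gagacatcctGGGAAATCCCagttacatgg
Cyld (chr8:88696863-88696892, plus strand): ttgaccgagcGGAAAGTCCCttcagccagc
The first matched base lay 29 bases before the listed start in Nfkbia, 12 in Tnfaip3, 57 in Tnip1, 54 in Tnip3, 155 in Cyld and 226 in Nfkbid, whereas in Bcl3 and Traf2 it was the base at position 3 and position 32 after the start. The other 4 members with a match were Nfkb2, Rel, Ikbkg and Map3k7. A match is a stretch of letters and was not tested for binding.

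Levels below are log2 intensities with the SD over n = 2 arrays, and differences are on the log2 scale with the standard error from limma. A gene was called when its Benjamini-Hochberg adjusted p over all 19938 genes was under 0.05. With 2 arrays a population, lack of overlap between populations is common and is no test. It held for 10377 of the 19938 genes in CD24+CD172a+ cDC2 against cDC1 and for 10443 in CD24-CD172a+ cDC2 against cDC1. Between the cDC2 populations it held for 8812. Among the 38 members the counts were 29, 31 and 23 in the same order. The array medians ran from 29.5 to 30.6 in linear intensity. Replicate arrays differed by a median of 0.15 to 0.16 log2 units over the members, against 0.14 to 0.15 over all genes. No member lay below the arrays' 25th percentile (3.72) in all 3 populations, and 33 of the 38 were brighter than the median gene. Nothing in the labels ties the 2 arrays of a population to different mice, so p-values measure only the spread between arrays, which may be technical. In sorted cells pooled for an array, fewer cells of a kind and less RNA per cell cannot be told apart.

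Cell type markers followed the labels. All 8 cDC1 markers, such as Xcr1 and Clec9a, were lower in CD24+CD172a+ cDC2 than in cDC1, and 7 of 8 were lower in CD24-CD172a+ cDC2. Of 8 cDC2 markers, such as Sirpa and Irf4, CD24+CD172a+ cDC2 had 7 above cDC1, and CD24-CD172a+ cDC2 had all 8. Sirpa encodes CD172a, and Cd24a, counted among the cDC1 markers, encodes CD24. The cells were sorted on both proteins, so these genes are not independent of the labels. No marker of NK cells (6) or erythroid cells (3) was called in any comparison.

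The first question is how the pathway differs between each cDC2 population and cDC1. Most of the calls fell among the inhibitors (4 of 6 in CD24+CD172a+ cDC2 and 5 of 6 in CD24-CD172a+ cDC2) and the feedback genes (6 of 7, then 4 of 7), and no member was called lower. In CD24+CD172a+ cDC2, 15 of 38 members rose (39.5%) and 0 fell, which leaves 23 without a call, and the median difference was 0.33. Over all genes 13.6% were called in that comparison, 7.11% higher and 6.52% lower, with a median of -0.03, and among genes brighter than the median gene 23.9% were called. In CD24-CD172a+ cDC2, 15 of 38 members rose (39.5%) and 0 fell, which again leaves 23 without a call, and the median difference was 0.42. There 15.7% of all genes were called, 6.83% higher and 8.91% lower, with a median of 0.00, and 27.6% of the brighter genes. These comparisons share the cDC1 arrays, so their results are not independent of each other.

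**Figure D1:**
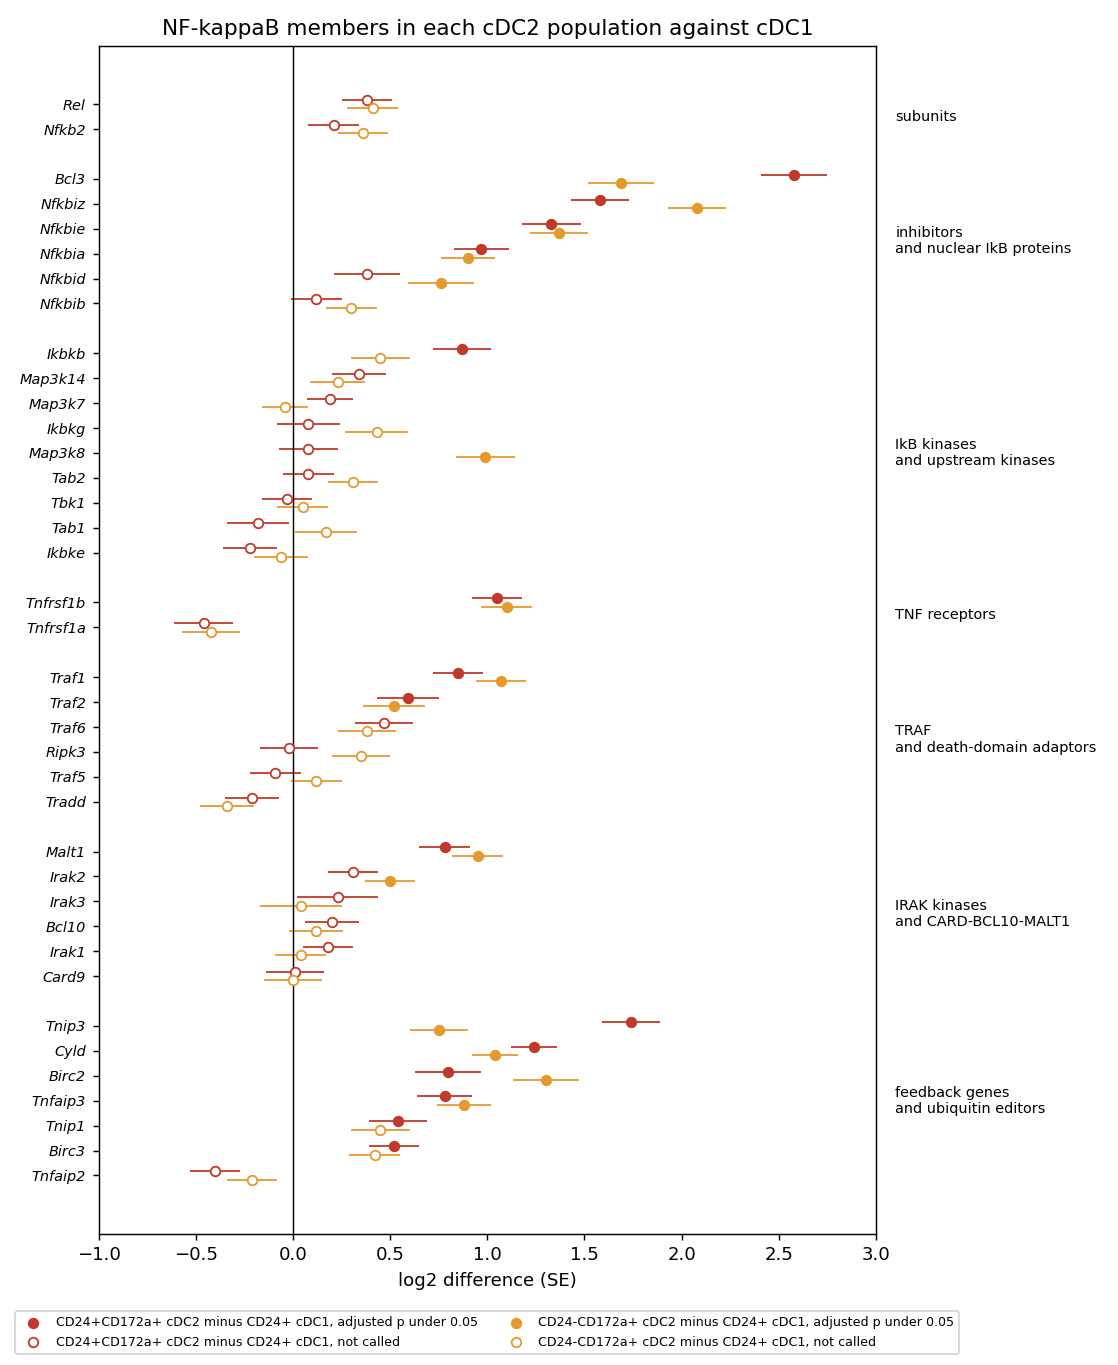
Log2 differences (x axis, with standard errors as bars) of the 38 measured members in CD24+CD172a+ cDC2 (red) and CD24-CD172a+ cDC2 (orange) against CD24+ cDC1, grouped by role. Filled points have an adjusted p under 0.05 in limma; all filled points lie right of 0, and Bcl3 reaches 2.58 in CD24+CD172a+ cDC2.

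Of the NF-kappaB subunits, Rel and Nfkb2 were measured, and neither passed the test. Rel encodes c-Rel, a subunit with an activation domain that is abundant in lymphoid and myeloid cells. Rel was at 11.79 and 11.73 in CD24+CD172a+ cDC2, at 11.75 and 11.84 in CD24-CD172a+ cDC2, and at 11.33 and 11.44 in cDC1. Both cDC1 arrays lay below all 4 cDC2 arrays. The differences from cDC1 were 0.38 ± 0.13 (adjusted p = 0.0844) in CD24+CD172a+ cDC2 and 0.41 ± 0.13 (adjusted p = 0.0532) in CD24-CD172a+ cDC2. Nfkb2, whose product p100 is processed to p52 in the non-canonical branch, differed from cDC1 by 0.21 ± 0.13 in CD24+CD172a+ cDC2 (adjusted p = 0.365) and by 0.36 ± 0.13 in CD24-CD172a+ cDC2 (adjusted p = 0.0889). The other subunits, Rela and Relb, are not among the 44 genes but stood in a list of further pathway components, and are named here after their values were seen. Rela, the p65 subunit, was higher than in cDC1 by 0.61 (adjusted p = 0.0182) in CD24+CD172a+ cDC2 and by 0.54 (adjusted p = 0.0301) in CD24-CD172a+ cDC2. Relb, the partner of p52, was higher by 0.81 (adjusted p = 0.00461) and 0.75 (adjusted p = 0.00676) in the same order.

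The 6 inhibitors and nuclear IkB proteins held the largest difference of any member in each comparison with cDC1. In CD24+CD172a+ cDC2, 4 of 6 rose over cDC1 (median 1.15), and in CD24-CD172a+ cDC2 5 of 6 rose (median 1.13). Bcl3, a nuclear IkB protein that binds p50 and p52 dimers, was at 8.09 and 8.27 in CD24+CD172a+ cDC2, at 7.50 and 7.08 in CD24-CD172a+ cDC2, and at 5.48 and 5.71 in cDC1. The populations did not overlap. Bcl3 was 6-fold higher than cDC1 in CD24+CD172a+ cDC2 (2.58 ± 0.17, adjusted p = 2.13e-06) and 3.24-fold higher in CD24-CD172a+ cDC2 (1.69 ± 0.17, adjusted p = 5.17e-05).

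Nfkbiz encodes IkB-zeta, a nuclear cofactor for a subset of NF-kappaB targets that includes interleukin 6 in macrophages. It was at 8.55 and 8.83 in CD24+CD172a+ cDC2, at 9.04 and 9.34 in CD24-CD172a+ cDC2, and at 7.06 and 7.16 in cDC1. Every cDC2 array lay above both cDC1 arrays. The increase over cDC1 was 1.58 ± 0.15 in CD24+CD172a+ cDC2 (adjusted p = 4.26e-05) and 2.08 ± 0.15 in CD24-CD172a+ cDC2 (adjusted p = 5.28e-06).

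Nfkbie, which encodes the cytoplasmic inhibitor IkB-epsilon, was at 9.20 and 9.48 in CD24+CD172a+ cDC2, at 9.27 and 9.48 in CD24-CD172a+ cDC2, and at 7.91 and 8.11 in cDC1. The cDC2 populations overlapped with each other and not with cDC1. Nfkbie rose by 1.33 ± 0.15 (adjusted p = 0.000139) in CD24+CD172a+ cDC2 and by 1.37 ± 0.15 (adjusted p = 0.000119) in CD24-CD172a+ cDC2. Nfkbia, which encodes IkB-alpha and carries the match shown above close to its start, averaged 10.71 ± 0.07 in CD24+CD172a+ cDC2, 10.64 ± 0.06 in CD24-CD172a+ cDC2 and 9.74 ± 0.17 in cDC1. It rose by 0.97 ± 0.14 (adjusted p = 0.000638) in CD24+CD172a+ cDC2 and by 0.90 ± 0.14 (adjusted p = 0.00107) in CD24-CD172a+ cDC2. Nfkbid, another nuclear IkB protein, rose in CD24-CD172a+ cDC2 (0.76 ± 0.17, adjusted p = 0.011), and its difference in CD24+CD172a+ cDC2 was 0.38 ± 0.17 (adjusted p = 0.199). Nfkbib, the gene of IkB-beta, was not called, with differences of 0.12 ± 0.13 for CD24+CD172a+ cDC2 and of 0.30 ± 0.13 for CD24-CD172a+ cDC2.

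**Figure D2:**
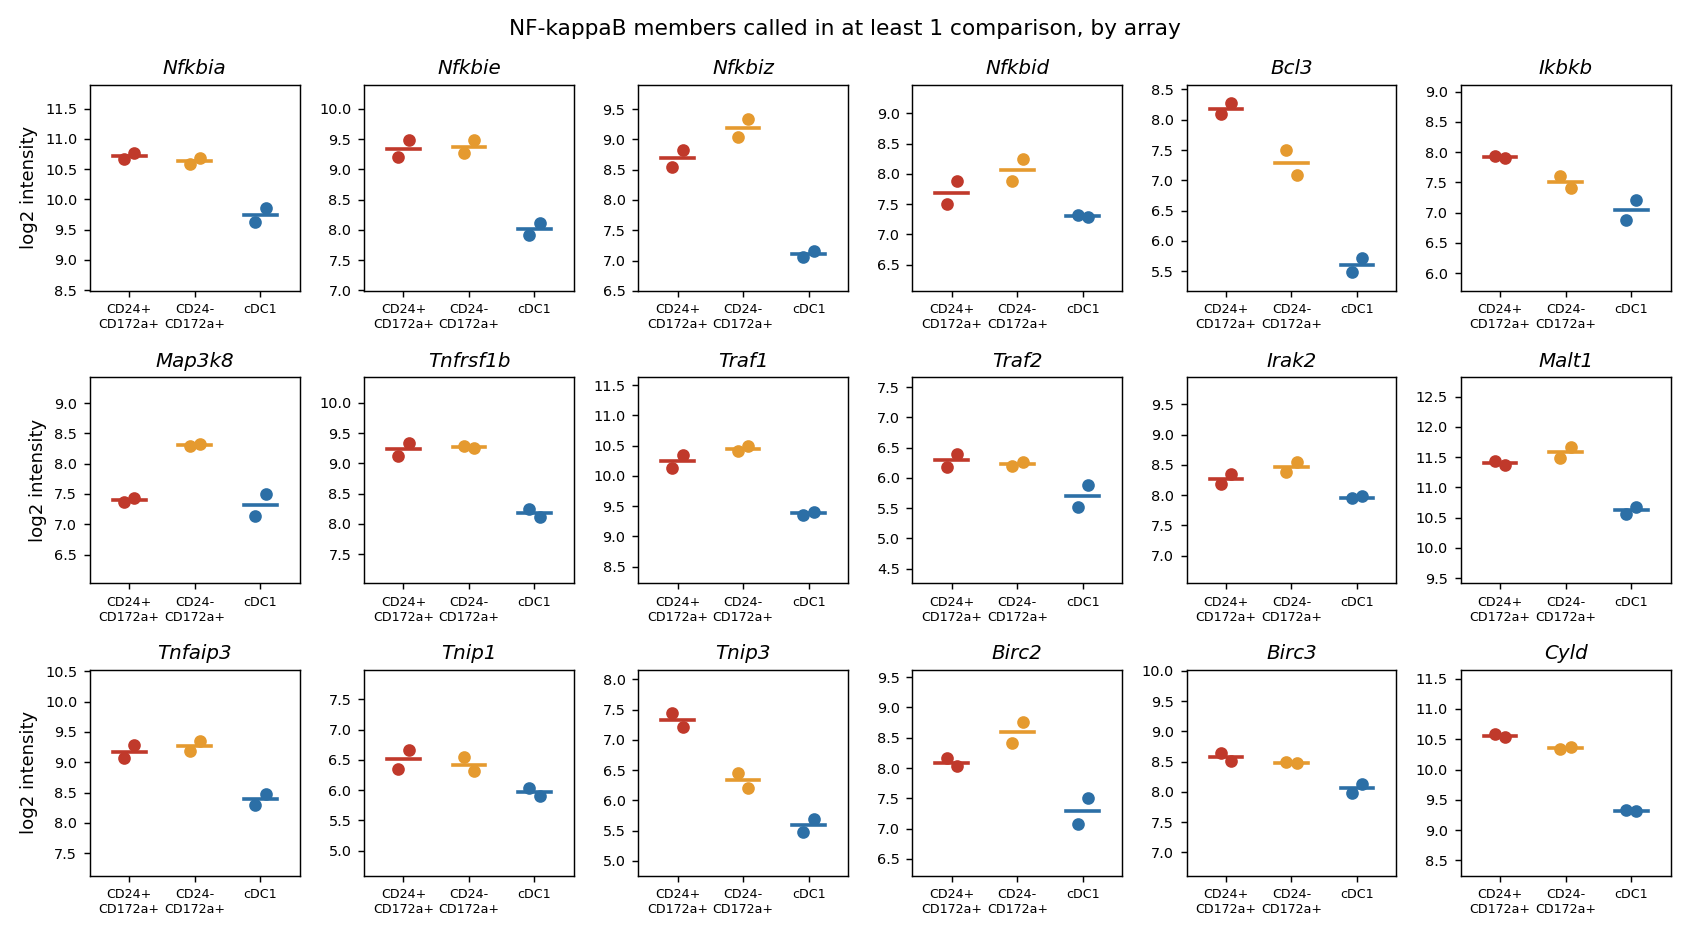
Log2 intensity (y axis, each panel spanning the same number of log2 units) of the 18 members called in at least 1 of the 3 comparisons. Points are single arrays and lines are means of the 2 arrays of CD24+CD172a+ cDC2, CD24-CD172a+ cDC2 and cDC1; cDC1 arrays are the lowest in most panels, Bcl3 and Tnip3 fall stepwise over the 3 populations, and Map3k8 is high in CD24-CD172a+ cDC2 alone.

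Of 9 measured IkB kinases, upstream kinases and their TAB partners, 1 rose in each comparison with cDC1 (11.1%). Over all genes the share called was 13.6% for the CD24+CD172a+ population and 15.7% for the CD24-CD172a+ one. Among genes brighter than the median gene it was 23.9% and 27.6%. With 1 call among 9 genes, the kinases' share cannot be told apart from that of all genes. Ikbkb encodes IKK-beta, the catalytic subunit of the canonical IkB kinase. It averaged 7.92 ± 0.03 in CD24+CD172a+ cDC2 and 7.05 ± 0.23 in cDC1, an increase of 0.87 ± 0.15 (adjusted p = 0.00249). In CD24-CD172a+ cDC2 it averaged 7.50 ± 0.14 and differed from cDC1 by 0.45 ± 0.15 (adjusted p = 0.0716). Map3k8 encodes TPL2, a kinase that p105 holds inactive and that drives the ERK branch of the response. It was at 7.37 and 7.43 in CD24+CD172a+ cDC2, at 8.30 and 8.32 in CD24-CD172a+ cDC2, and at 7.13 and 7.50 in cDC1. Only the CD24-CD172a+ arrays stood apart. They were higher than cDC1 by 0.99 ± 0.15 (adjusted p = 0.000973), whereas CD24+CD172a+ cDC2 differed from cDC1 by 0.08 ± 0.15 (adjusted p = 0.829). The other 7 were Ikbkg, the regulatory subunit NEMO; Ikbke and Tbk1, kinases of the interferon branch; Map3k7, the kinase TAK1; Tab1 and Tab2, which bind TAK1; and Map3k14, the NIK kinase of the non-canonical branch. Their differences from cDC1 ran from -0.22 for Ikbke to 0.34 for Map3k14 in CD24+CD172a+ cDC2, and from -0.06 for Ikbke to 0.43 for Ikbkg in CD24-CD172a+ cDC2.

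The TNF receptor genes had differences of opposite sign. Tnfrsf1b encodes TNFR2, which recruits TRAF2 and lacks a death domain. It was at 9.12 and 9.33 in CD24+CD172a+ cDC2, at 9.28 and 9.26 in CD24-CD172a+ cDC2, and at 8.25 and 8.11 in cDC1. Every cDC2 array lay above the cDC1 arrays, and Tnfrsf1b was 2.07-fold higher in CD24+CD172a+ cDC2 (1.05 ± 0.13, adjusted p = 0.000335) and 2.14-fold higher in CD24-CD172a+ cDC2 (1.10 ± 0.13, adjusted p = 0.000247). Tnfrsf1a encodes TNFR1, the widely expressed receptor with a death domain. It averaged 8.48 ± 0.30 in CD24+CD172a+ cDC2, 8.52 ± 0.03 in CD24-CD172a+ cDC2 and 8.94 ± 0.06 in cDC1. Its differences from cDC1 were -0.46 ± 0.15 (adjusted p = 0.0815) and -0.42 ± 0.15 (adjusted p = 0.107), neither called.

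Among 6 measured TRAF, TRADD and RIPK genes, 2 rose in each cDC2 population, Traf1 and Traf2. Traf1, an adaptor that NF-kappaB itself induces and that joins TRAF2 at TNFR2, was at 10.13 and 10.35 in CD24+CD172a+ cDC2, at 10.41 and 10.49 in CD24-CD172a+ cDC2, and at 9.36 and 9.41 in cDC1. The cDC1 arrays were the lowest. Traf1 rose by 0.85 ± 0.13 (adjusted p = 0.00137) in CD24+CD172a+ cDC2 and by 1.07 ± 0.13 (adjusted p = 0.000287) in CD24-CD172a+ cDC2. Traf2 rose by 0.59 ± 0.16 (adjusted p = 0.0303) and 0.52 ± 0.16 (adjusted p = 0.0463) in the same order. The other 4 were Traf5, an adaptor close to TRAF2; Traf6, which serves Toll-like and interleukin 1 receptors; Tradd, the adaptor of TNFR1; and Ripk3, the kinase of necroptosis. None was called, with differences from -0.21 for Tradd to 0.47 for Traf6 in CD24+CD172a+ cDC2 and from -0.34 for Tradd to 0.38 for Traf6 in CD24-CD172a+ cDC2.

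In the branches fed by Toll-like receptors and lectins, Malt1 was the member that moved in both populations. MALT1 is the paracaspase that acts with CARD9 and BCL10 downstream of lectin receptors such as Dectin-1. Malt1 averaged 11.40 ± 0.04 in CD24+CD172a+ cDC2, 11.58 ± 0.12 in CD24-CD172a+ cDC2 and 10.62 ± 0.09 in cDC1. It rose by 0.78 ± 0.13 (adjusted p = 0.00223) in CD24+CD172a+ cDC2 and by 0.95 ± 0.13 (adjusted p = 0.000568) in CD24-CD172a+ cDC2. Its partners were not called. Card9 differed from cDC1 by 0.01 ± 0.15 in CD24+CD172a+ cDC2 and by 0.00 ± 0.15 in CD24-CD172a+ cDC2, and Bcl10 by 0.20 ± 0.14 and 0.12 ± 0.14 in that order. Irak2, a kinase of the MyD88 complex, rose in CD24-CD172a+ cDC2 (0.50 ± 0.13, adjusted p = 0.0262) and differed by 0.31 ± 0.13 in CD24+CD172a+ cDC2 (adjusted p = 0.183). Irak1, a kinase of the same complex, and Irak3, which restrains it, were not called and differed by at most 0.23.

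Of 7 feedback genes and ubiquitin editors, 6 rose over cDC1 in CD24+CD172a+ cDC2 (median 0.78) and 4 in CD24-CD172a+ cDC2 (median 0.75). Tnip3 encodes ABIN-3, a ubiquitin-binding partner of A20. It was at 7.44 and 7.22 in CD24+CD172a+ cDC2, at 6.45 and 6.21 in CD24-CD172a+ cDC2, and at 5.47 and 5.70 in cDC1. The populations did not overlap, and Tnip3 was 3.35-fold higher than cDC1 in CD24+CD172a+ cDC2 (1.74 ± 0.15, adjusted p = 1.79e-05) and 1.68-fold higher in CD24-CD172a+ cDC2 (0.75 ± 0.15, adjusted p = 0.0062). Since Tnip3 had the largest increase of any member between the cDC2 populations, the 250 bases before its start (chr6:65590148-65590397, plus strand, GRCm38.p6, RefSeq) are given, with the kappaB match in capitals.
Tnip3: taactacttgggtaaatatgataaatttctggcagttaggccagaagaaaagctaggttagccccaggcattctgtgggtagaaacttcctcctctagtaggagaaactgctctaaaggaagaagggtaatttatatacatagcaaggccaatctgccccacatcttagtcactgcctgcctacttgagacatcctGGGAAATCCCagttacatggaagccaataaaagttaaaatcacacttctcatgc

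Cyld, a deubiquitinase that removes the ubiquitin chains on which the pathway's signalling complexes are built, was at 10.58 and 10.53 in CD24+CD172a+ cDC2, at 10.34 and 10.38 in CD24-CD172a+ cDC2, and at 9.33 and 9.31 in cDC1. The arrays of each population lay within 0.05 of each other. Cyld rose over cDC1 by 1.24 ± 0.12 (adjusted p = 5.33e-05) in CD24+CD172a+ cDC2 and by 1.04 ± 0.12 (adjusted p = 0.000197) in CD24-CD172a+ cDC2. Birc2, which encodes the ubiquitin ligase cIAP1, was at 8.16 and 8.03 in CD24+CD172a+ cDC2, at 8.42 and 8.76 in CD24-CD172a+ cDC2, and at 7.08 and 7.50 in cDC1. It rose by 0.80 ± 0.17 (adjusted p = 0.0102) and by 1.30 ± 0.17 (adjusted p = 0.000441) in the same order, and both cDC1 arrays lay below all cDC2 arrays. The dimmer of its 2 probe sets, tested with all probe sets, gave 0.62 ± 0.23 in CD24+CD172a+ cDC2, which was not called (adjusted p = 0.117), and 0.93 ± 0.23 in CD24-CD172a+ cDC2 (adjusted p = 0.0214).

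Tnfaip3, the gene of the ubiquitin editor A20, averaged 9.17 ± 0.15 in CD24+CD172a+ cDC2, 9.27 ± 0.11 in CD24-CD172a+ cDC2 and 8.39 ± 0.13 in cDC1. It rose by 0.78 ± 0.14 (adjusted p = 0.00336) in CD24+CD172a+ cDC2 and by 0.88 ± 0.14 (adjusted p = 0.00146) in CD24-CD172a+ cDC2. Tnip1, which encodes the A20 partner ABIN-1, and Birc3, which encodes cIAP2, rose in CD24+CD172a+ cDC2, by 0.54 ± 0.15 (adjusted p = 0.0412) and 0.52 ± 0.13 (adjusted p = 0.0224). In CD24-CD172a+ cDC2 Tnip1 differed from cDC1 by 0.45 ± 0.15 (adjusted p = 0.078) and Birc3 by 0.42 ± 0.13 (adjusted p = 0.0529). Tnfaip2 is a TNF-induced gene outside the core cascade, and it differed by -0.40 ± 0.13 (adjusted p = 0.0735) in CD24+CD172a+ cDC2 and -0.21 ± 0.13 (adjusted p = 0.357) in CD24-CD172a+ cDC2.

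Of the 15 calls in CD24+CD172a+ cDC2, 11 were kept in each of the 4 fits that leave out 1 compared array. Traf2 lost its call without either CD24+CD172a+ array or cDC1 replicate 1, Tnip1 without CD24+CD172a+ replicate 2 or either cDC1 array, Birc2 without CD24+CD172a+ replicate 1 or cDC1 replicate 1, and Birc3 without any 1 of the 4. In CD24-CD172a+ cDC2 11 of 15 were kept as well: Traf2 lost its call without either CD24-CD172a+ array or cDC1 replicate 1 and in 6 of 13 other settings, Nfkbid and Irak2 without CD24-CD172a+ replicate 2 or either cDC1 array, and Tnip3 without cDC1 replicate 1. Beside these results, 3 of 19 measured immediate-early and stress genes rose and 3 fell in CD24+CD172a+ cDC2 against cDC1. In CD24-CD172a+ cDC2, 4 rose and 1 fell. These shares, 31.6% and 26.3%, stood beside 13.6% and 15.7% of all genes and 23.9% and 27.6% of the brighter genes. On the log2 scale the summed level of these 19 genes was 14.15 to 14.41 in CD24+CD172a+ cDC2 and 14.51 to 14.60 in CD24-CD172a+ cDC2. In cDC1 it was 14.18 to 14.32, and the part of these genes in the members' differences was not tested. Monocyte and macrophage markers (10 measured) had 2 calls higher and 3 lower in CD24+CD172a+ cDC2 against cDC1, and 5 higher and 1 lower in CD24-CD172a+ cDC2. B cell markers (5 measured) had 2 higher and 1 lower for CD24+CD172a+ cDC2, then 1 higher and 1 lower for CD24-CD172a+ cDC2. Plasmacytoid dendritic cell markers (6 measured) had 3 higher and 1 lower in CD24+CD172a+ cDC2 (Spib 2.12, Tcf4 1.76, Siglech 1.15 and Ccr9 -1.79), and for CD24-CD172a+ cDC2 2 were higher and 2 lower. The neutrophil markers S100a9 (1.52) and S100a8 (1.23), of 8 measured, were called higher in CD24+CD172a+ cDC2, and the T cell marker Cd3d (0.47), of 5 measured, in CD24-CD172a+ cDC2. Whether such cells contributed was not tested.

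The second question is how the cDC2 populations differ from each other. Of 38 members, Tnip3 and Bcl3 rose in CD24+CD172a+ cDC2 relative to CD24-CD172a+ cDC2, Map3k8 fell, and 35 were not called. That is 7.89% of members, against 1.46% of all genes (0.808% higher and 0.652% lower) and 2.47% of the genes brighter than the median gene. The median difference was -0.04 over the members and -0.01 over all genes. With 3 calls, the count rests on few genes. A missing call does not show equal levels, since in simulated data 3.13% of changes of 0.5 log2 units were called.

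Tnip3 rose 2-fold in CD24+CD172a+ cDC2 (standard error 0.15 on the log2 scale, adjusted p = 0.0122), and Bcl3 rose by 0.89 ± 0.17 (adjusted p = 0.0345). Both genes thus had their highest levels in CD24+CD172a+ cDC2, intermediate levels in CD24-CD172a+ cDC2 and their lowest in cDC1, with each step called. Map3k8 fell by 0.91 ± 0.15 (adjusted p = 0.0175), at 7.40 ± 0.04 in CD24+CD172a+ cDC2 against 8.31 ± 0.01 in CD24-CD172a+ cDC2. After these, the differences with the largest size were in Nfkbiz (-0.50 ± 0.15, adjusted p = 0.165), Birc2 (-0.50 ± 0.17, adjusted p = 0.219) and Ikbkb (0.42 ± 0.15, adjusted p = 0.228), none called. Nfkbia, Nfkbie, Tnfrsf1b, Rel and Tnfaip3 differed by 0.10 or less in either direction. The call of Map3k8 ended in each of the 4 fits that leave out 1 compared array (adjusted p up to 0.156), with its difference from -0.93 to -0.88. Those of Tnip3 and Bcl3 were kept only without CD24-CD172a+ replicate 1, with differences of 1.12 and 1.10; without CD24+CD172a+ replicate 1 or 2 or CD24-CD172a+ replicate 2 the adjusted p ran up to 0.139 for Tnip3 and 0.228 for Bcl3. Under cyclic loess normalisation 1 member was called higher (Tnip3) and 1 lower (Map3k8), and Bcl3 lost its call there and with log2(value + 16).

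**Figure D3:**
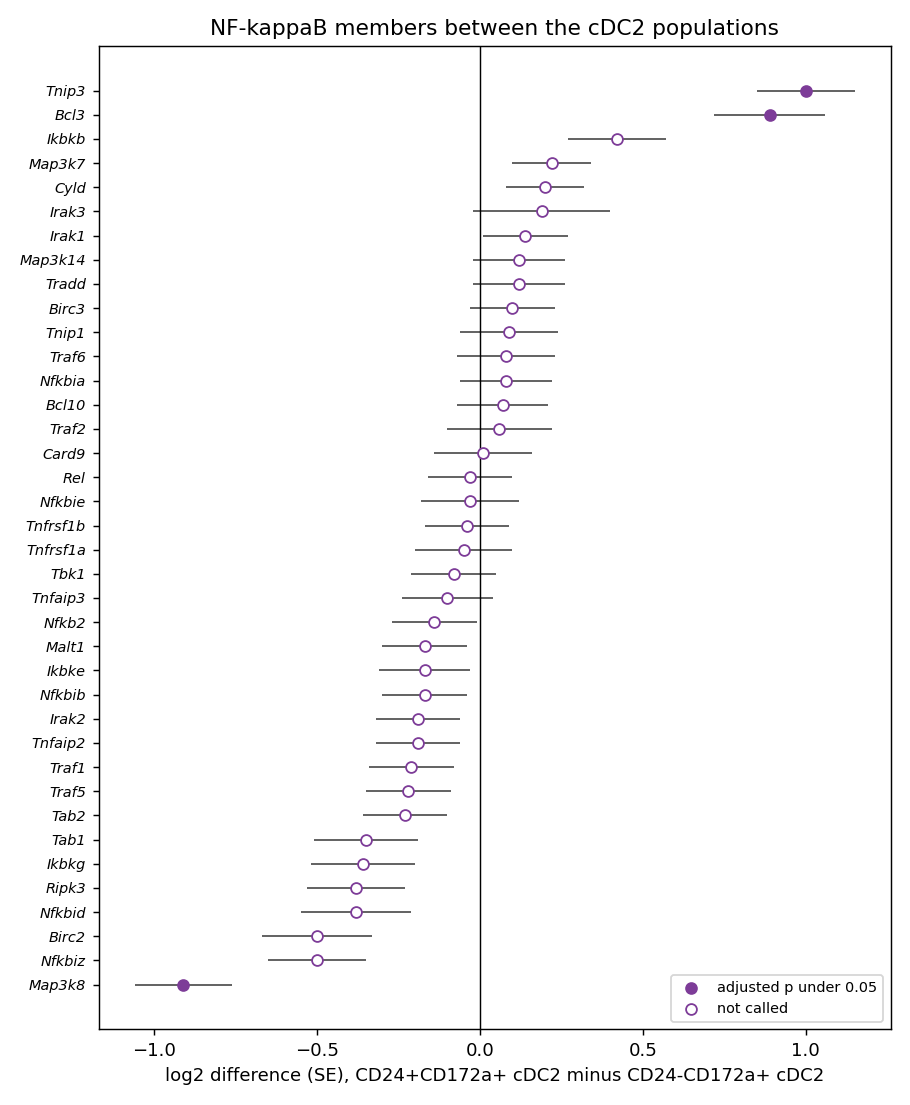
Log2 differences (x axis, with standard errors as bars) of the 38 measured members in CD24+CD172a+ cDC2 minus CD24-CD172a+ cDC2, ordered by size. Filled points have an adjusted p under 0.05 in limma; they are Tnip3 and Bcl3 (0.89) on the right and Map3k8 (-0.91) on the left.

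Genes listed as markers of other cell types moved between the cDC2 populations as well. Relative to CD24-CD172a+ cDC2, CD24+CD172a+ cDC2 had lower levels of 7 of 10 measured markers of monocytes and macrophages and a higher level of none. Over all genes 0.652% were called lower and 0.808% higher in that comparison. Levels of these markers in cDC1 varied, with means of 9.07 for Treml4, 7.84 for Spic and 4.17 for Adgre1. The summed level of these markers was 10.88 to 11.12 in CD24+CD172a+ cDC2 on the log2 scale. It was 11.89 to 12.00 in CD24-CD172a+ cDC2 and 11.98 to 12.00 in cDC1. A sum gives most weight to the brightest marker, which was Lyz2 in each population (means 10.2, 11.29 and 11.61 in the same order). The mean log2 level over the 10 markers was 6.09 to 6.24 in CD24+CD172a+ cDC2 and 6.88 to 6.97 in CD24-CD172a+ cDC2. That mean was lowest in cDC1, at 5.95 to 6 log2 units. Of 6 plasmacytoid dendritic cell markers, 3 were higher in CD24+CD172a+ cDC2 and none lower, with summed levels of 9.42 to 9.48 in CD24+CD172a+ cDC2, 8.78 in both CD24-CD172a+ arrays and 9.13 to 9.20 in cDC1. Of 8 neutrophil markers 2 were higher in CD24+CD172a+ cDC2, and 6 of the 8 lay below the median gene's level there. The part of such cells in the differences of Map3k8, Bcl3 and Tnip3 was not tested.

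Further genes of the pathway were described through lists. Of 39 measured components outside the 44, such as MyD88 and the linear ubiquitin ligase, 5 rose and 4 fell in CD24+CD172a+ cDC2 against cDC1 (23.1%, median 0.03), and 7 rose and 6 fell in CD24-CD172a+ cDC2 against cDC1 (33.3%, median 0.04). Over all genes 13.6% and 15.7% were called in these comparisons, and of the genes brighter than the median gene 23.9% and 27.6%. None of the 39 components was called between the cDC2 populations in limma, against 1.46% of all genes. There 5 of them had an unadjusted p under 0.05. The largest differences in CD24+CD172a+ cDC2 were in Ticam2 (2.27), the TRAM adaptor of TLR4, Nod1 (1.33), a sensor of bacterial peptidoglycan, the ubiquitin ligase Peli1 (-1.04) and the ubiquitin-conjugating enzyme Ube2n (-0.89). In CD24-CD172a+ cDC2 they were in Ticam2 (2.22), Nod1 (1.48), the adaptor Myd88 (-0.87) and the peptidoglycan sensor Nod2 (0.86). The cDC1 arrays gave 4.79 and 3.76 for Ticam2, against 6.43 and 6.65 in CD24+CD172a+ cDC2. The lower cDC1 value lay near the arrays' 25th percentile and the other near their median, a wide spread.

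Among 26 other receptors of the TNF receptor superfamily, 1 rose and 4 fell in CD24+CD172a+ cDC2 against cDC1 (19.2%, against 13.6% of all genes), and 1 rose and 3 fell in CD24-CD172a+ cDC2 (15.4%, against 15.7%), so the list's share of calls lay near that of all genes. None was called between the cDC2 populations in limma, where 0 had an unadjusted p under 0.05. Tnfrsf21, which encodes death receptor 6, fell by 1.87 in CD24+CD172a+ cDC2 (adjusted p = 1.51e-05) and by 1.88 in CD24-CD172a+ cDC2 (adjusted p = 1.43e-05). Tnfrsf12a, the receptor of TWEAK, rose by 0.69 and 0.65 in that order. Tnfrsf14, the herpesvirus entry mediator, fell by 0.67 and 0.46 in the same populations, and Tnfrsf13c, the BAFF receptor, by 0.54 and 0.55. Tnfrsf4, which encodes OX40, fell by 0.56 in CD24+CD172a+ cDC2.

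Genes that NF-kappaB is known to induce split in direction against cDC1. Of 34 measured targets, 8 rose and 8 fell in CD24+CD172a+ cDC2 (47.1%, median -0.07). In CD24-CD172a+ cDC2, 14 rose and 8 fell (64.7%, median 0.06). The shares over all genes were 13.6% and 15.7% in that order, and over genes brighter than the median gene 23.9% and 27.6%. Ptgs2, the inducible cyclooxygenase, was at 10.60 and 10.94 in CD24+CD172a+ cDC2 and at 11.11 and 11.39 in CD24-CD172a+ cDC2, against 6.71 and 7.02 in cDC1. It had the largest increase of the list in both, 3.91 (adjusted p = 1.21e-07) and 4.39 (adjusted p = 5.52e-08). The largest decreases in CD24+CD172a+ cDC2 were in Il12b (-3.69), the p40 subunit of interleukin 12, and in the chemokines Cxcl2 (-2.56) and Ccl22 (-2.10). In CD24-CD172a+ cDC2 the urokinase receptor gene Plaur rose by 2.69 and Tnf by 2.35, and Ccl22 fell by 2.22.

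Between the cDC2 populations, 7 of the 34 targets fell in CD24+CD172a+ cDC2 and none rose (20.6%), against 0.652% of all genes called lower, and the list's median was -0.28. Tnf itself was at 8.86 and 9.67 in CD24+CD172a+ cDC2, against 10.75 and 11.05 in CD24-CD172a+ cDC2. Il12b (-1.72), Ccl4 (-1.60) and Ccl3 were lower as well. Il6, Ier3 and Plaur, named after their values were seen, complete the 7. Il6 was dim, at 4.31 and 4.80 in CD24+CD172a+ cDC2 and at 5.42 and 5.60 in CD24-CD172a+ cDC2, where the arrays' median was 4.91. This list overlaps lists of cytokines and chemokines already known from these arrays to be lower in CD24+CD172a+ cDC2, so its direction is not independent evidence. With 1 of the compared arrays left out, 2 to 4 of the 34 were called: 2 without CD24+CD172a+ replicate 1, 3 when its replicate 2 was dropped, 4 without CD24-CD172a+ replicate 1, and 2 when that population's replicate 2 was dropped.

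**Figure D4:**
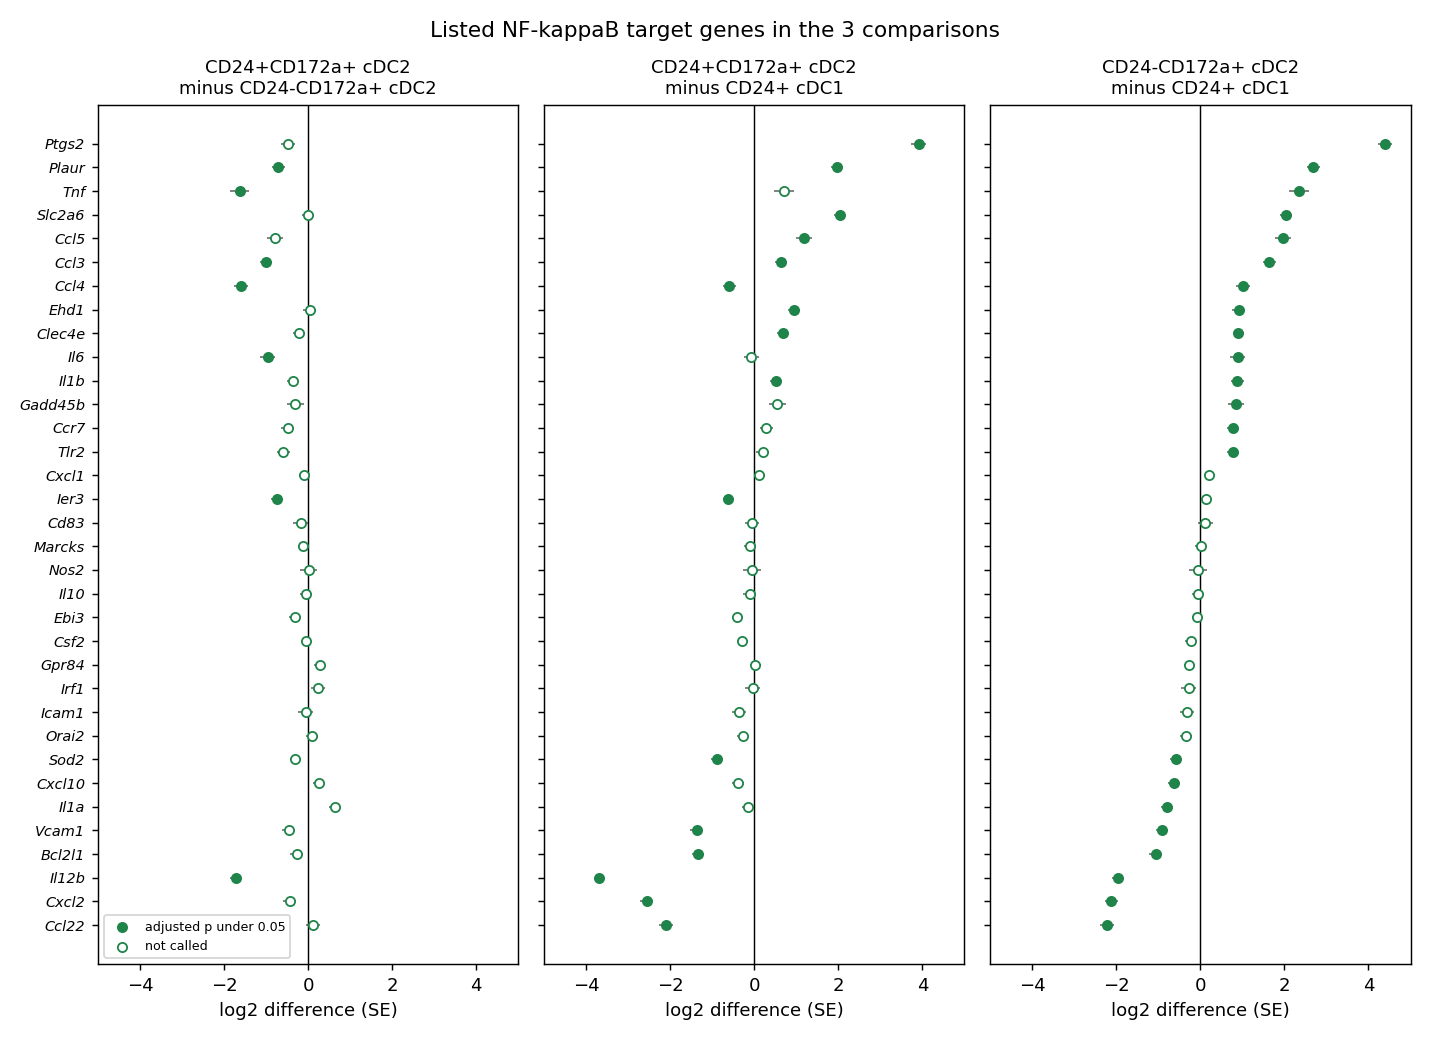
Log2 differences (x axes, with standard errors as bars) of 34 listed NF-kappaB target genes in the 3 comparisons, in the order of the comparison of CD24-CD172a+ cDC2 with cDC1. Filled points have an adjusted p under 0.05 in limma; against cDC1 they lie on both sides of 0, and between the cDC2 populations all 7 lie left of 0.

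The promoter matches were set beside the calls as a description. Of the 12 members with a promoter entry that rose over cDC1 in CD24+CD172a+ cDC2, 7 held a match to the narrower pattern, and of the 20 not called there 5 did. In CD24-CD172a+ cDC2 the counts were 7 of 12 and 5 of 20. Most called members were the same genes in both populations and the cDC1 arrays are shared, so these counts are not independent. The broader pattern, found for 53.5% of all genes, was held by 10 of the 12 called members (83.3%) and 16 of the 20 not called (80.0%). Its counts were the same in either cDC2 population. Whether matches differ between called and uncalled members was not tested. Bcl3 and Tnip3, which rose between the cDC2 populations, each held 1 match, and Nfkbie, Tnfrsf1b, Traf1 and Birc2 held none in these windows. Called members without a promoter entry were not searched. They were Nfkbiz and Malt1 in both populations, Ikbkb in CD24+CD172a+ cDC2 and Map3k8 in CD24-CD172a+ cDC2. Map3k8 was also the member called lower between the cDC2 populations.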

How the data were processed

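The authors made the deposited intensities, which are linear, by RMA in Affymetrix Expression Console, per the submitters' processing notes. RMA corrects background, normalises arrays by quantiles and summarises each probe set. Versions and the build are not given in the sources used here. Their log2 was taken without a pseudocount. Of 28853 probe sets, 21789 had 1 gene symbol in GEO's platform annotation and were used, 1621 had several and 5443 none. The brightest stood for each of 999 genes with several probe sets, giving 19938 genes, and low values were not filtered. The populations were compared with limma 3.58.1 in R 4.3.3 (lmFit, eBayes), all 6 arrays in 1 fit, with 3 residual and 7.31 prior degrees of freedom, and Benjamini-Hochberg adjustment over all genes. Tests were checked on simulated data for the comparison between the cDC2 populations. Changes of 0.5, 1 and 2 log2 units were called in 3.13%, 62.4% and 96.7% of cases. On average 2.88% of the calls made were of unchanged genes. All members are named; values of every array are given for those called with a log2 difference of at least 1, or called between the cDC2 populations, and Rel; each further list gives up to 4 called genes a comparison by size. Members and lists were chosen with earlier results of these data known. Alternatives covered filters on low values, probe sets, normalisation, variance, array weights, treat, an offset, a replicate block and leaving out arrays. Python 3.11.15 and matplotlib 3.10.9 drew the figures.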

Additional observations from a re-analysis of the deposited data

How the results depend on the processing

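Each comparison's count of called members was recomputed under 13 other settings and with each of the 6 arrays left out. With treat, which tests against a 1.5-fold change, 0 members were called between the cDC2 populations, 5 in CD24+CD172a+ cDC2 against cDC1 and 5 in CD24-CD172a+ cDC2 against cDC1, in place of 3, 15 and 15; this is a stricter test by construction. Leaving out 1 array gave 0 to 3 called members between the cDC2 populations, 11 to 15 in CD24+CD172a+ cDC2 against cDC1 and 11 to 14 in CD24-CD172a+ cDC2 against cDC1, and each such fit has fewer samples. The other 12 settings stayed within 1.5 times the count: 2 to 3, 15 to 19 and 14 to 20. Their upper ends hold calls that the main setting lacks, such as Rel, Nfkb2 and Birc3 as higher, and Tnfrsf1a as lower (-0.46, adjusted p = 0.0331, with an intensity trend and robust variance). Besides treat, the settings that ended a call were all probe sets, median centring, array weights, only the compared populations and log2(value + 16) for Traf2 in CD24-CD172a+ cDC2 against cDC1, and cyclic loess and log2(value + 16) for Bcl3 between the cDC2 populations. No called member changed sign under any of these settings. With the replicate number as a replicate block, 3, 16 and 15 members were called. Over all genes the block gave 411, 2918 and 3323 calls, against 291, 2718 and 3137 without it. Deviations of same-numbered arrays correlated at 0.02 to 0.08 over all genes. So low a correlation cannot exclude an effect shared by some genes, so whether the numbers pair the arrays is not known. Signal over background was not examined, which limits statements on dim members such as Ikbke (population means 4.09 to 4.32).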

Other observations

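Genes of mature or migratory dendritic cells, which NF-kappaB activity accompanies, did not share 1 direction. Of 6 measured, Fscn1, an actin-bundling protein of mature cells, rose by 0.72 in CD24+CD172a+ cDC2 against cDC1 (adjusted p = 0.0238), and Ccl22 (-2.10) and Socs2 (-0.63) fell there. In CD24-CD172a+ cDC2 against cDC1, Ccr7, the receptor that guides migration to lymph nodes, rose by 0.78 (adjusted p = 0.00525) and Ccl22 fell by 2.22. Socs2, a feedback inhibitor of cytokine receptors, was at 5.30 and 5.41 in CD24+CD172a+ cDC2, below its 6.34 and 6.38 in CD24-CD172a+ cDC2 (adjusted p = 0.00973), and Ccr7 differed by -0.49 (adjusted p = 0.165).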
